A study of Mus musculus with 12 samples.

Results

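The genes followed here are the serum- and glucocorticoid-regulated kinases Sgk1, Sgk2 and Sgk3, the forkhead box O transcription factors Foxo1, Foxo3 and Foxo4, and the FOXO targets Cdkn1b, Ccng2, Klf2 and Sesn1. They were chosen by symbol, and all 10 were found among the 18211 genes of the expression table. Each had enough counts to be tested, which held for 13563 genes in all.

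IGF-1R and other growth factor receptors signal through PI3K and the kinase PDK1 to AKT and to its relatives, the SGK kinases. Both kinase families phosphorylate FOXO factors, which are then held in the cytoplasm. When this signal weakens, FOXO factors return to the nucleus and switch on genes of cell cycle arrest, stress defense, autophagy and, in lymphocytes, of homing and survival. The comparison therefore asks whether mRNAs of FOXO targets were higher in tumors treated with an IGF-1R inhibitor.

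MC38, a mouse colorectal adenocarcinoma line, was grown under the skin of female C57BL/6 mice bought at 5 weeks of age, and the mice were randomized on day 7. The 4 groups held 3 tumors each: CK (vehicle), PB-020 alone, anti-PD-1 alone, and both agents (PB-020/anti-PD-1, below also the combination). PB-020, an IGF-1R inhibitor related to picropodophyllin, was given by daily gavage at 50 mg/kg, and the antibody against PD-1, an inhibitory receptor of T cells, was injected into the peritoneum at 200 μg per mouse on days 9, 12, 15 and 18. Every group carried the same tumor line and host strain, and tumor and host transcripts were counted together. By Western blot of tumor tissue, the study reported that PB-020 and anti-PD-1 treatment strongly reduced phosphorylated AKT1. It also reported less tumor growth with both agents than with either one. In its listed volumes at the last measurement, tumors with PB-020 alone were on average not smaller than those of CK. Most tumors with anti-PD-1 alone and all with the combination were smaller than every CK tumor. Tumor size thus differed between groups as well, mostly between tumors with and without anti-PD-1. Which of these volumes belong to the sequenced tumors is not stated.

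The libraries held 16545394 to 17217035 expected counts, that is, fragments that the quantification assigned to genes. Levels below are FPKM (fragments scaled by transcript length and by the size of the library), and changes are log2 ratios from the edgeR quasi-likelihood test, called at an adjusted p under 0.05. The summed FPKM of the epithelial markers Epcam, Krt8, Krt18, Krt19 and Cdh1 was only 2.19 to 4.29 in any tumor, and 1 of these 5 genes had enough counts to be tested, so these 5 markers were barely visible. Keratinocyte markers, which include the keratin gene Krt14 (mean 138 FPKM over all tumors), were higher. They summed to 78.71 to 117.34 FPKM in CK, 107.85 to 138.37 with PB-020, 131.85 to 183.72 with anti-PD-1 and 166.58 to 207.75 with the combination. T cell markers summed to 14.96 to 20.21 FPKM in CK, 21.73 to 27.49 with PB-020, 33.9 to 81.86 with anti-PD-1 and 39.55 to 64.91 with the combination. Fibroblast markers summed to 1903 to 2549, 1788 to 1867, 920 to 1813 and 990.0 to 1394 FPKM in the same order, and of the 10 fibroblast genes 4 fell and none rose with anti-PD-1, while 4 fell and 1 rose with the combination. The median log2 change of these 10 genes was 0.41 and 0.28, so the sum and the median gene moved in opposite directions. All 5 tested erythroid markers fell in both comparisons (median log2 change -2.36 and -2.99), and their sums were 679 to 1556 FPKM in CK, 449 to 1046 with PB-020, 101 to 380 with anti-PD-1 and 127 to 184 with the combination. CK tumor 3 stood apart in neutrophil markers (417 FPKM against 8.30 to 38.6 in the other 11 tumors) and adipocyte markers (205 against 28.5 to 63.0). Skeletal muscle markers reached 640 FPKM in anti-PD-1 tumor 1, against 12.87 to 69.91 in the other 11 tumors. The drug target Igf1r stood at 11.2 ± 0.959 FPKM (SD, n = 3) in CK, 10.7 ± 0.238 with PB-020, 10.9 ± 0.0737 with anti-PD-1 and 10.1 ± 0.575 with the combination, where it did not pass the test (log2 change -0.13). Pdcd1, which encodes PD-1, was 3.45-fold higher with anti-PD-1 and 3.17-fold higher with the combination than in CK (edgeR, adjusted p = 0.0168 and 0.0111), and both calls were lost without CK tumor 2 (0.0836 and 0.0578).

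None of the 10 genes was called for PB-020 against CK, where edgeR called 0% of all genes. At an unadjusted p under 0.05 it passed 741 genes (5.46%), 1 of the 10 among them, while DESeq2 called 6 genes and limma 0, none of them among the 10. Against CK, anti-PD-1 lowered 2 of the 10 (Sgk1 and Sesn1) and raised none, beside 8.26% of all genes called and 4.08% lowered. The combination lowered the same pair and raised none, beside 17.9% of all genes called and 9.60% lowered. Both comparisons use the CK tumors, so they are not independent. By the thresholds of the study, a fold over 1.5 with an unadjusted p under 0.05, here from edgeR, 0 of the 10 passed for PB-020, 1 (Sesn1) for anti-PD-1 and 2 (Sgk1 and Sesn1) for the combination, beside 0.560%, 7.18% and 8.52% of all genes. In the 6 tumors with anti-PD-1 against the 6 without it, Sgk1, Sesn1 and Cdkn1b fell and Foxo1 rose, 4 of 10 beside 24.2% of all genes.

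The 6 tumors with PB-020 against the 6 without it gave no call among the 10 (0% of all genes by edgeR). There 1475 genes (10.9%) and 2 of the 10 had an unadjusted p under 0.05, and DESeq2 called 61 genes and limma 0, again none among the 10. The combination against anti-PD-1 gave 0% called, with 984 genes (7.26%) and 1 of the 10 under an unadjusted 0.05, and DESeq2 called 1 gene, limma 0. The interaction, which asks whether PB-020 acted differently with and without anti-PD-1, gave 0% called, with 310 genes (2.29%) and 0 of the 10 under an unadjusted 0.05, and both DESeq2 and limma called 0. The median log2 change of the 10 genes was -0.06 for PB-020, -0.07 for anti-PD-1 and -0.12 for the combination against CK, beside medians of -0.0038, 0.00047 and -0.0026 over all genes tested.

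**Figure D1:**
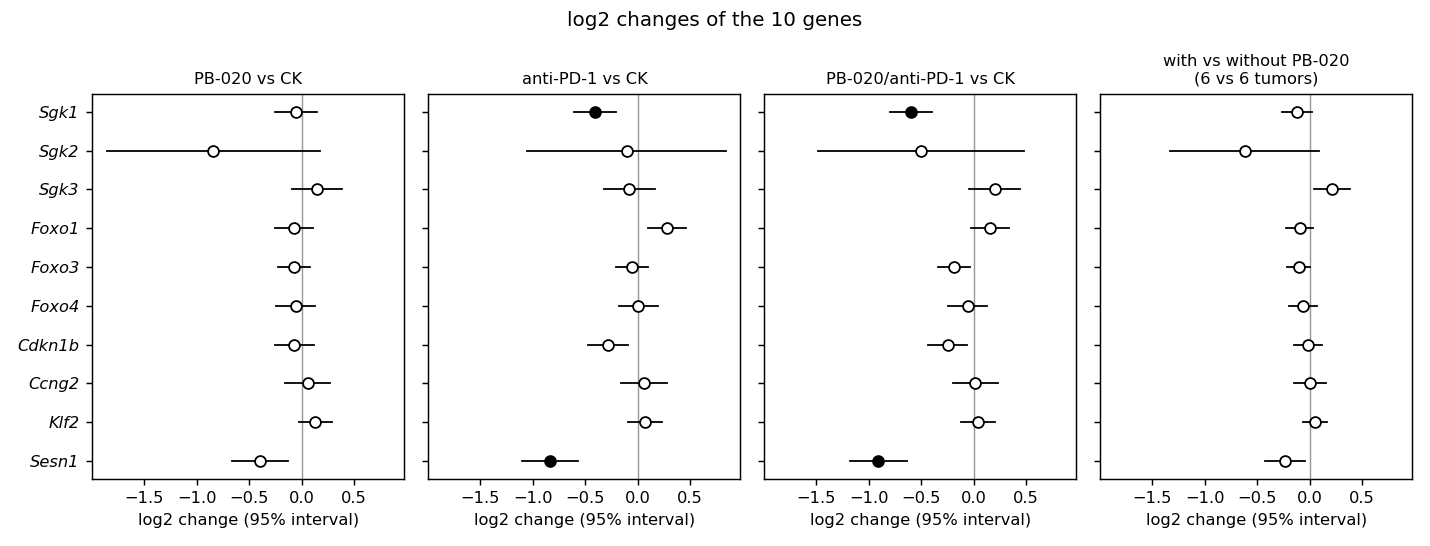
log2 changes of the 10 genes in 4 comparisons, as points with 95% intervals from edgeR. Filled points passed an adjusted p under 0.05. Filled points stand only at Sgk1 and Sesn1, both below 0 in the anti-PD-1 and combination panels. The wide intervals belong to Sgk2, which had 4 to 16 counts per tumor.

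Sgk1 (gene 20393, GRCm38.p6 chr10:21882184-21999903) encodes the kinase of the family that glucocorticoids and serum induce, and it had the highest level of the 3 SGK genes. It measured 46.72, 56.88 and 50.52 FPKM in the CK tumors and 50.49, 45.91 and 49.45 FPKM with PB-020. With anti-PD-1 it measured 43.49, 38.41 and 32.78 FPKM, and with the combination 35.02, 33.27 and 32.51 FPKM. Every tumor that received anti-PD-1, alone or combined, lay below every tumor that did not, while CK overlapped PB-020 and anti-PD-1 overlapped the combination.

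Sgk1 was lower than in CK by 24.7% with anti-PD-1 (log2 change -0.41, SE 0.0933, edgeR adjusted p = 0.0206) and by 33.8% with the combination (log2 change -0.59, SE 0.0935, adjusted p = 0.00261). Its change with PB-020 alone was -0.06 (95% interval -0.26 to 0.14), and the combination differed from anti-PD-1 by -0.19 (95% interval -0.39 to 0.02), both short of the test. The call for anti-PD-1 rested on single tumors: without CK tumor 2 the adjusted p was 0.101, and without anti-PD-1 tumor 3 it was 0.0772, whereas the call for the combination kept an adjusted p of at most 0.0167 with any 1 tumor left out. The study itself picked out Sgk1 and Sgk2 on these same tumors, and of the genes named further on also Bcl2l11, Nos3, Irs1, Pdgfra, Il7r and Ccne2, so their directions here are not independent evidence.

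Sgk2 (gene 27219, chr2:162987327-163014139), a paralog with high expression in liver and kidney, was close to the limit of detection. Its levels were 0.20, 0.35 and 0.32 FPKM in CK, 0.24, 0.10 and 0.10 FPKM with PB-020, 0.34, 0.19 and 0.23 FPKM with anti-PD-1, and 0.19, 0.18 and 0.18 FPKM with the combination. The combination tumors all lay just below the CK tumors, by as little as 0.19 against 0.20 FPKM, and the other groups overlapped CK. The log2 change was -0.84 (95% interval -1.86 to 0.18) for PB-020 and -0.50 (95% interval -1.49 to 0.48) for the combination, so a fall could not be told from no change at 4 to 16 counts per tumor.

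Sgk3 (gene 170755, chr1:9798130-9902570) encodes the member of the family that binds endosomal phosphoinositides. It measured 3.12, 3.43 and 2.96 FPKM in CK and 3.09, 3.37 and 3.93 FPKM with PB-020. It measured 2.92, 3.24 and 2.71 FPKM with anti-PD-1 and 3.61, 3.82 and 3.33 FPKM with the combination. The combination tumors lay above all anti-PD-1 tumors, and all other pairs of groups overlapped.

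Sgk3 differed by 0.21 on the log2 scale between the 6 tumors with PB-020 and the 6 without it (SE 0.0793, 95% interval 0.04 to 0.39), which did not pass after adjustment over all genes (edgeR adjusted p = 0.358). The levels per length thus ordered the family as Sgk1, Sgk3 and Sgk2 in each of the 12 tumors. Of the 3 kinases, only Sgk1 was called in any of the 7 comparisons.

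**Figure D2:**
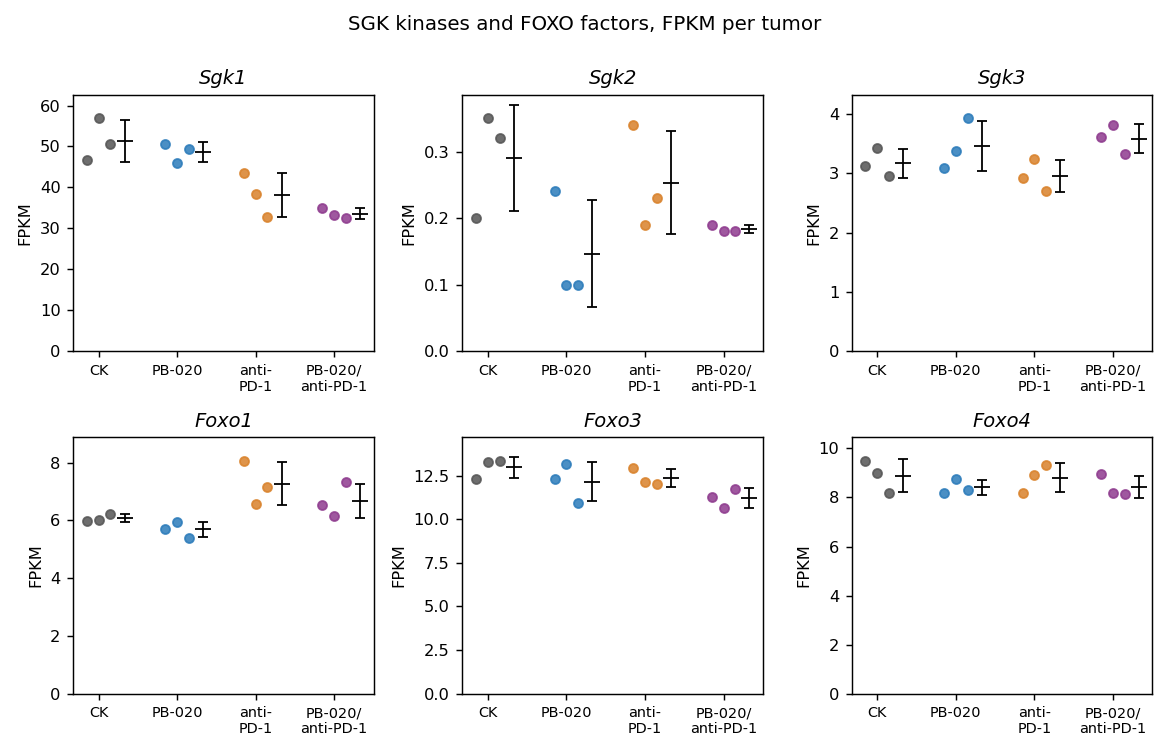
FPKM of the SGK kinases and FOXO factors in each of the 12 tumors, by group, with points for tumors and a bar for the group mean ± SD (n = 3). Each panel has its own axis from 0. The Sgk1 points of both groups with anti-PD-1 lie below those of CK and PB-020, whereas the Foxo3 and Foxo4 points lie within 10.62 to 13.36 and 8.13 to 9.5 FPKM throughout.

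Foxo1 (gene 56458, chr3:52268337-52350109) encodes the FOXO factor best known for control of metabolism and of lymphocyte quiescence. Its levels were 5.99, 6.00 and 6.23 FPKM in CK and 5.71, 5.95 and 5.40 FPKM with PB-020. They were 8.07, 6.58 and 7.16 FPKM with anti-PD-1 and 6.54, 6.16 and 7.32 FPKM with the combination. The PB-020 tumors all lay below the CK tumors by a narrow margin, the anti-PD-1 tumors all lay above them, and the combination overlapped both CK and anti-PD-1.

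Foxo1 was 19.1% higher in the 6 tumors with anti-PD-1 than in the 6 without (log2 change 0.25, SE 0.0599, edgeR adjusted p = 0.00997). Against CK the change was 0.28 for anti-PD-1 (SE 0.0845, adjusted p = 0.0576), which missed the threshold by edgeR and passed by DESeq2 (adjusted p = 0.0468). The change with PB-020 alone was -0.07 (95% interval -0.25 to 0.11). T cell marker sums were also higher in the tumors with anti-PD-1. They were 21.73 to 27.49 FPKM with PB-020 alone and 14.96 to 20.21 FPKM in CK, with 0 of 11 tested markers called. Their part in the result was not tested. In whole tumors, more cells of a type and more RNA per cell cannot be told apart.

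Foxo3 (gene 56484, chr10:42181845-42276695), known for its role in stress resistance and cell death, had the highest level per length of the 3 factors. It measured 12.30, 13.27 and 13.36 FPKM in CK and 12.32, 13.16 and 10.95 FPKM with PB-020. It measured 12.94, 12.15 and 12 FPKM with anti-PD-1 and 11.27, 10.62 and 11.76 FPKM with the combination. The combination tumors lay below all CK and all anti-PD-1 tumors, but the change from CK did not pass the test (log2 change -0.19, 95% interval -0.34 to -0.04, edgeR adjusted p = 0.0778).

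Foxo4 (gene 54601, chrX:101254261-101260873), a smaller member of the same family, measured 9.5, 8.99 and 8.17 FPKM in CK and 8.17, 8.74 and 8.32 FPKM with PB-020. It measured 8.18, 8.93 and 9.33 FPKM with anti-PD-1 and 8.95, 8.18 and 8.13 FPKM with the combination. All 4 groups overlapped. Its largest log2 change against CK was -0.06 (95% interval -0.25 to 0.13, PB-020), and its change with anti-PD-1 was 0.0071, a sign that turned with the scaling of the libraries.

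Cdkn1b (gene 12576, chr6:134920401-134925525) encodes p27, an inhibitor of cyclin-dependent kinases and a classical FOXO target. It measured 36.67, 41.21 and 36.37 FPKM in CK and 36.99, 34.69 and 35.55 FPKM with PB-020. It measured 26.74, 32.50 and 33.33 FPKM with anti-PD-1 and 31.84, 29.97 and 33.24 FPKM with the combination. All 6 tumors with anti-PD-1 lay below all 6 without it, and CK overlapped PB-020 as anti-PD-1 overlapped the combination.

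Cdkn1b was 14.7% lower in the tumors with anti-PD-1 (log2 change -0.23, SE 0.0615, edgeR adjusted p = 0.0174). That call was lost without CK tumor 2 (adjusted p = 0.0515), PB-020 tumor 1 (0.0559) or combination tumor 2 (0.0501). Against CK, the change of -0.28 for anti-PD-1 (adjusted p = 0.0595) and of -0.25 for the combination (adjusted p = 0.0636) missed the threshold by edgeR; DESeq2 called the former (adjusted p = 0.0354) and scaling by library size alone called both. With PB-020 against without it, Cdkn1b changed by -0.02 (95% interval -0.15 to 0.12), that is, between -9.85% and 8.29%.

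Ccng2 (gene 12452, chr5:93267573-93276231) encodes cyclin G2, an atypical cyclin that restrains the cell cycle. It measured 24.63, 24.38 and 25.53 FPKM in CK and 22.04, 30.34 and 23.98 FPKM with PB-020. It measured 23.29, 27.02 and 26.37 FPKM with anti-PD-1 and 24.40, 24.98 and 25.07 FPKM with the combination. All groups overlapped, and PB-020 tumor 2 was the highest of the 12. The log2 change with PB-020 alone was 0.06 (95% interval -0.16 to 0.27), and over the 6 against 6 tumors it was 0.0059 (95% interval -0.15 to 0.16), a sign that turned with the scaling. Without PB-020 tumor 2 these values were -0.09 and -0.06.

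Klf2 (gene 16598, chr8:72319062-72321654) encodes a zinc finger factor that keeps endothelial cells and lymphocytes quiescent, and its level per length was the highest of the 10 genes in every tumor. It measured 101.07, 109.76 and 105.17 FPKM in CK and 117.56, 113.63 and 109.84 FPKM with PB-020. It measured 112.32, 106.67 and 107.65 FPKM with anti-PD-1 and 94.88, 107.38 and 119.31 FPKM with the combination. The PB-020 tumors all lay above the CK tumors, by as little as 109.84 against 109.76 FPKM, and the combination spanned the whole range.

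Klf2 was the only one of the 10 genes whose PB-020 tumors all lay above CK, and its log2 change there was 0.13 (SE 0.0745, 95% interval -0.03 to 0.29, edgeR adjusted p = 0.874). Groups with no overlap of FPKM in this comparison were found for 3 of the 10 genes (Klf2 higher, Foxo1 and Sesn1 lower) and for 14.9% of all genes tested. With PB-020 against without it over 6 against 6 tumors, the change of Klf2 was 0.05 (95% interval -0.06 to 0.17).

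Sesn1 (gene 140742, chr10:41810574-41908436) encodes sestrin 1, a stress protein that restrains mTORC1 and is a target of both FOXO factors and p53. It measured 12.58, 15.65 and 16.45 FPKM in CK and 11.83, 11.45 and 9.96 FPKM with PB-020. It measured 7.37, 9.41 and 7.51 FPKM with anti-PD-1 and 6.88, 8.37 and 7.91 FPKM with the combination. All tumors of each treated group lay below all CK tumors, and the PB-020 tumors lay above all tumors with anti-PD-1, so that only anti-PD-1 and the combination overlapped. Over the 10 genes, FPKM did not overlap CK for 4 with anti-PD-1 (1 higher, 3 lower) and for 5 with the combination (all lower), beside 29.0% and 40.4% of all genes. The 6 tumors with anti-PD-1 did not overlap the 6 without it for 3 of the 10 (all lower), beside 8.14% of all genes.

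Sesn1 moved most among the genes with more than 16 counts. It was 44.0% lower than in CK with anti-PD-1 (log2 change -0.84, SE 0.125, edgeR adjusted p = 0.0067) and 46.7% lower with the combination (log2 change -0.91, SE 0.125, adjusted p = 0.00182). With PB-020 alone the value was 24.1% lower (log2 change -0.40, 95% interval -0.66 to -0.13), which did not pass after adjustment (adjusted p = 0.874), and its direction was down, not up. The interaction was 0.33 (95% interval -0.06 to 0.71), so a smaller effect of PB-020 on top of anti-PD-1 was not shown by the test. When only CK and anti-PD-1 tumors were fitted, the adjusted p was 0.0504. The fibroblast marker sums were below CK in all 3 treated groups, as Sesn1 was, while the median fibroblast gene was higher with anti-PD-1 and with the combination (log2 change 0.41 and 0.28). The erythroid markers fell in the same 2 comparisons as Sesn1 and Sgk1. The part of either list in these results was not tested.

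**Figure D3:**
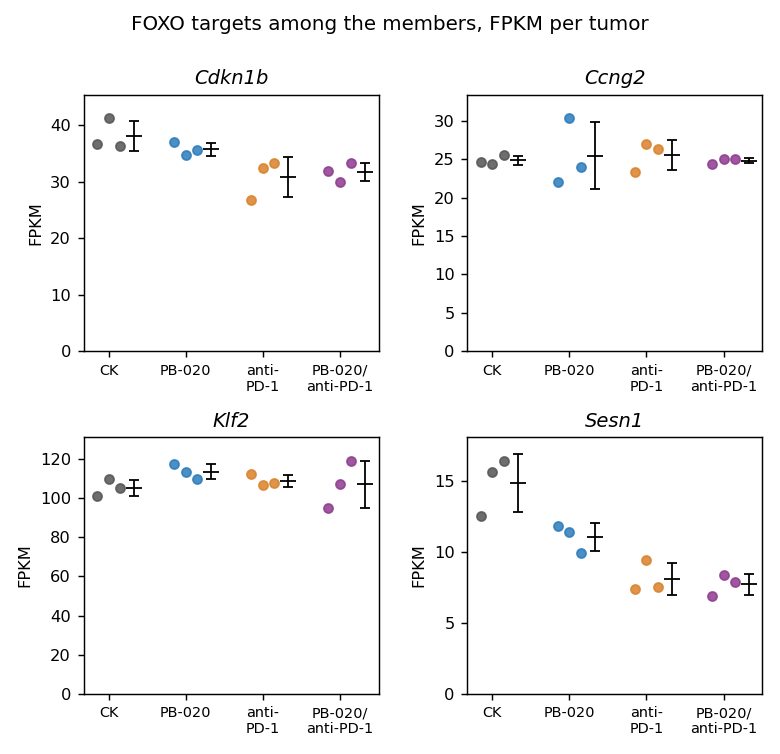
FPKM of the 4 FOXO targets in each of the 12 tumors, by group, with points for tumors and a bar for the group mean ± SD (n = 3). Each panel has its own axis from 0. Sesn1 falls from 12.58 to 16.45 FPKM in CK to 6.88 to 8.37 FPKM with the combination, while Ccng2 and Klf2 overlap CK in the groups with anti-PD-1.

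The promoters of the 2 lowered targets are shown because both hold letters of the FOXO recognition motif. RefSeq windows on GRCm38.p6, from 250 bases before to 50 after a start site, were at hand for 7 of the 10 genes, and were searched on both strands for GTAAACA and for TAAACA, which lies within it. Below are 100 bases before and 30 from the start site, with the match, which reads on the opposite strand, in capitals.
Cdkn1b, chr6:134920301-134920430, plus strand: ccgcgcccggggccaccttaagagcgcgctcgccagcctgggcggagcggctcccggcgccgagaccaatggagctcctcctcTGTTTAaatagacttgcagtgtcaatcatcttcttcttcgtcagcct
Sesn1, chr10:41810474-41810603, plus strand: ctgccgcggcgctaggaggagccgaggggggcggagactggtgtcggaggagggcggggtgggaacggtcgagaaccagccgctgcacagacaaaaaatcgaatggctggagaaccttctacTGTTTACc

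GTAAACA was found in 1 of these 7 genes (Sesn1, in 1 of its 2 windows, bases 23 to 29 from the start site), beside 4.052% of 27025 genes with a window. TAAACA was found in 2 of the 7 (also Cdkn1b, bases -17 to -12), beside 15.06% of all genes. Of the further FOXO targets followed below, 27 had a window, and 22.22% of these held GTAAACA and 25.93% TAAACA. A match is a description of letters in the window and not a site of binding.

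A further list of 30 genes known as direct FOXO targets in some tissue, for apoptosis, autophagy, metabolism and oxidative defense, was followed in the same way. Of these, 26 had enough counts to be tested, and the liver and muscle genes G6pc, Igfbp1, Pck1 and Trim63 did not. PB-020 raised 0 and lowered 0 of the 26 against CK by edgeR, and DESeq2 and limma also called 0. At an unadjusted p under 0.05, 1 was higher and 2 were lower, beside 5.46% of all genes in either direction. Of the log2 changes 9 were above and 17 below 0, and the median was -0.08, beside -0.0038 over all genes. The 6 against 6 tumors gave 0 calls for PB-020 as well. There 1 was higher and 4 were lower at an unadjusted p under 0.05, beside 10.9% of all genes in either direction. The median was -0.10, beside -0.015 over all genes.

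With anti-PD-1 against CK, 2 of the 26 rose and 2 fell, and with the combination 2 rose and 5 fell, that is, 15.4% and 26.9% called, beside 8.26% and 17.9% of all genes. The median log2 change was -0.02 and -0.13, respectively. The count for anti-PD-1 was 0 without CK tumor 2 or anti-PD-1 tumor 3, 2 without CK tumor 1 or PB-020 tumor 1, and 8 without anti-PD-1 tumor 2. The count for the combination was 4 without CK tumor 2 or combination tumor 1.

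Bnip3, a mitophagy receptor that hypoxia also induces, rose with the combination from 135.5 ± 18.4 to 200.03 ± 13.3 FPKM (SD, n = 3; log2 change 0.58, SE 0.110, edgeR adjusted p = 0.00505). Its value with PB-020 alone was 174.3 ± 9.5 FPKM (log2 change 0.38, 95% interval 0.15 to 0.62, adjusted p = 0.874). With anti-PD-1 alone Bnip3 stood at 191.9 ± 22.7 FPKM and was called as well (log2 change 0.52). That call was lost in 2 of the 12 fits that left out a tumor (edgeR adjusted p up to 0.0725). Tnfsf10, the death ligand TRAIL, was the other gene that rose, by 1.20 with anti-PD-1 and 1.30 with the combination on the log2 scale (edgeR adjusted p = 0.0334 and 0.0138), from 0.807 ± 0.323 FPKM in CK. It is named after its values were seen, and its call for anti-PD-1 was lost in 5 of the 12 fits that left out a tumor (adjusted p up to 0.136). The call for the combination was lost without CK tumor 2 (0.0669) or combination tumor 1 (0.0556).

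The autophagosome genes Map1lc3b and Gabarapl1 fell. Map1lc3b went from 83.0 ± 3.70 FPKM in CK to 64.5 ± 3.67 FPKM with the combination (SD, n = 3; log2 change -0.35, SE 0.0644, edgeR adjusted p = 0.00463). Gabarapl1 went from 39.6 ± 5.34 to 27.8 ± 0.541 FPKM (log2 change -0.49, SE 0.0985, adjusted p = 0.00666). The fall of Map1lc3b with anti-PD-1 alone passed as well (log2 change -0.24, adjusted p = 0.0360), but was lost in 6 of the 12 fits that left out a tumor (up to 0.144).

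Bcl2l11, which encodes the proapoptotic protein BIM, also fell. It measured 9.27 ± 1.82 FPKM in CK, 7.34 ± 0.756 with PB-020, 6.42 ± 0.847 with anti-PD-1 and 5.85 ± 0.1 with the combination (SD, n = 3). The log2 change was -0.53 for anti-PD-1 (SE 0.132, edgeR adjusted p = 0.0306) and -0.63 for the combination (SE 0.133, adjusted p = 0.00842), and -0.35 with PB-020 alone (95% interval -0.63 to -0.07, adjusted p = 0.874). The call for anti-PD-1 was lost without CK tumor 2 (0.131), CK tumor 3 (0.0851) or anti-PD-1 tumor 3 (0.106). The other genes that fell with the combination were Pik3ip1, an inhibitor of PI3K, and Txnip, an inhibitor of thioredoxin, at log2 changes of -0.56 and -0.70 (edgeR adjusted p = 0.0161 and 0.0402), named after their values were seen. The call of Pik3ip1 was lost without CK tumor 2 (0.0669) or combination tumor 1 (0.0730), and that of Txnip in 7 of the 12 fits that left out a tumor (up to 0.103). With any 1 tumor left out, Bnip3, Map1lc3b, Gabarapl1 and Bcl2l11 kept their calls for the combination (adjusted p at most 0.0268, 0.0295, 0.0361 and 0.0442).

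**Figure D4:**
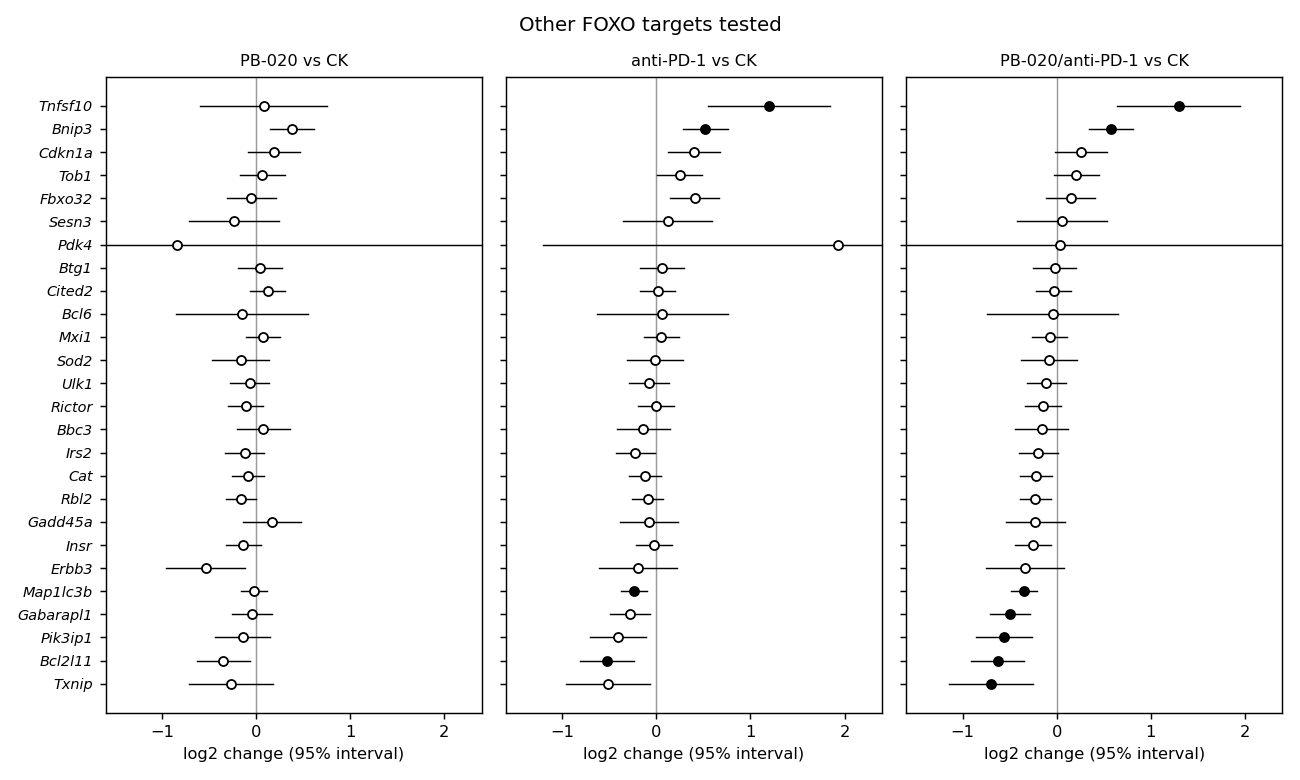
log2 changes of the 26 other FOXO targets tested, against CK, as points with 95% intervals from edgeR, ordered by the change with the combination. Filled points passed an adjusted p under 0.05. No point is filled for PB-020 alone, and 4 and 7 are filled for anti-PD-1 and the combination. The interval of Pdk4 runs past the axis.

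The genes that FOXO1 controls in lymphocytes were followed because FOXO1 acts there on homing and survival. Of 8 listed, 6 were tested, and 1 was called, beside 8.26% of all genes with anti-PD-1 and 17.9% with the combination: Il7r, the receptor for interleukin 7, rose from 3.01 ± 0.0625 FPKM in CK to 7.10 ± 1.64 FPKM with the combination (SD, n = 3; log2 change 1.26, SE 0.267, edgeR adjusted p = 0.0119). With anti-PD-1 alone it rose as well (log2 change 1.26, adjusted p = 0.0224), to 7.11 ± 3.03 FPKM, and with PB-020 alone it stood at 3.55 ± 0.507 FPKM. T cell markers rose in the same groups, 9 of 11 with anti-PD-1 and 10 of 11 with the combination, and their part in the rise of Il7r was not tested. None of the 6 genes was called for PB-020. The call of Il7r with anti-PD-1 was lost when any 1 CK tumor or anti-PD-1 tumor 3 was left out.

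Upstream of FOXO, 30 regulators were tested, from the receptor and PI3K to AKT, the phosphatases and the 14-3-3 proteins that hold FOXO factors in the cytoplasm. None was called for PB-020, 1 fell with anti-PD-1, and with the combination 4 fell and 1 rose. These shares were 3.33% and 16.7%, beside 8.26% and 17.9% of all genes called. Irs1, the adaptor of the insulin and IGF-1 receptors, fell in both, from 3.03 ± 0.0945 FPKM in CK to 2.28 ± 0.0866 with anti-PD-1 and 2.08 ± 0.0721 with the combination (SD, n = 3; edgeR adjusted p = 0.00998 and 0.00182). It stood at 2.57 ± 0.0929 FPKM with PB-020 (log2 change -0.22, adjusted p = 0.874). The other genes lowered by the combination were Crebbp, a coactivator that acetylates FOXO factors, Mlst8, a subunit of mTORC2, and Phlpp1, a phosphatase of AKT, at log2 changes of -0.32, -0.32 and -0.34. Their calls were lost without CK tumor 3 or combination tumor 1 (edgeR adjusted p = 0.0603 to 0.0762), and that of Phlpp1 also without CK tumor 2 (0.0560), whereas that of Irs1 for the combination kept an adjusted p of at most 0.0152. Its call for anti-PD-1 was lost without CK tumor 2 (0.0534). The gene that rose was Inpp4b, a lipid phosphatase (log2 change 0.92), named after its value was seen, whose call was lost in 8 of the 12 fits that left out a tumor (adjusted p up to 0.159).

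On the SGK side, 8 of 11 substrates and partners were tested. Ndrg1, a substrate used as a readout of SGK activity at the protein level, rose with anti-PD-1 (log2 change 0.33, edgeR adjusted p = 0.0449), 1 of 8 beside 8.26% of all genes called, and no gene of the list was called for PB-020 or the combination. A list for the glucocorticoid response, which induces Sgk1, held 12 tested genes, among them Nfat5, which is a factor of osmotic stress. Of these, 0 were called for PB-020 and for anti-PD-1. With the combination Nfat5 and Errfi1 fell (log2 changes -0.45 and -0.28, edgeR adjusted p = 0.0132 and 0.0481), 2 of 12 beside 9.60% of all genes lowered. No other gene of the list was called there, although 11 of the 12 log2 changes were below 0 (median -0.24). Per1 went from 19.1 ± 8.38 FPKM in CK to 10.5 ± 0.780 with the combination, and Dusp1 from 38.1 ± 3.87 to 26.5 ± 2.85. Tsc22d3 stood at 70.4 ± 18.4 and 68.7 ± 9.98 FPKM (SD, n = 3). In the 6 tumors with anti-PD-1 against the 6 without it, 3 of the 12 fell, beside 24.2% of all genes called. The part of this list in the fall of Sgk1 was not tested. The call of Ndrg1 was lost in 11 of the 12 fits that left out a tumor, Nfat5 was lost without CK tumor 2 (0.0683) or combination tumor 2 (0.0613), and Errfi1 was lost in 6 of the 12. The glucocorticoid receptor gene Nr3c1 stood at 18.4 ± 0.897 FPKM in CK and 17.9 ± 1.0 FPKM with the combination.

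A list for p27 and the passage from G1 to S phase held 13 tested genes, among them Ccng1, which is not a partner of p27. None fell: 0 rose with PB-020, 3 with anti-PD-1 and 4 with the combination, namely the cyclin genes Ccne2, Ccna2, Ccnd1 and Ccng1. Over all genes, 4.18% rose with anti-PD-1 and 8.35% with the combination. Of 10 proliferation markers, 0 rose with PB-020, 1 with anti-PD-1 and 5 with the combination (median log2 change 0.33), and their part in these values was not tested. Ccne2 (cyclin E2) rose from 8.86 ± 1.01 FPKM in CK to 15.9 ± 1.67 FPKM (SD, n = 3; log2 change 0.85, SE 0.130, edgeR adjusted p = 0.00241). Ccna2 (cyclin A2) and Ccnd1 (cyclin D1) both changed by 0.44 (adjusted p = 0.00747 and 0.0101), and Ccng1, the paralog of Ccng2 and a p53 target, by 0.25 (adjusted p = 0.0461). The call of Ccnd1 was lost without combination tumor 1 (0.0506) and that of Ccng1 in 8 of 12 fits that left out a tumor. The count for anti-PD-1 was 0 without CK tumor 2 or anti-PD-1 tumor 3.

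Among the inducers and endothelial targets of KLF2, 8 genes were tested, of which 0 were called for PB-020, 2 fell with anti-PD-1 and 3 with the combination, beside 4.08% and 9.60% of all genes lowered. Nos3, the endothelial nitric oxide synthase, went from 2.25 ± 0.0907 FPKM in CK to 1.5 ± 0.119 FPKM with the combination (SD, n = 3; log2 change -0.59, SE 0.138, edgeR adjusted p = 0.0126). It stood at 1.82 ± 0.259 FPKM with PB-020 and 1.47 ± 0.0757 FPKM with anti-PD-1. Mef2c and Mef2a, transcription factors that induce Klf2, changed by -0.64 and -0.24 (adjusted p = 0.00623 and 0.0311). The call of Nos3 was lost without CK tumor 2 (0.0524) or combination tumor 2 (0.0505), and that of Mef2a in 5 of 12 fits that left out a tumor. The count of this list for anti-PD-1 was 0 without CK tumor 2 or anti-PD-1 tumor 3, and also 0 with only the groups compared. For the combination it was 1 without CK tumor 2 or combination tumor 2. Endothelial markers summed to 71.01 to 109.22 FPKM in CK and 62.89 to 74.13 FPKM with the combination, where 1 of 12 fell, and their part in these values was not tested.

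Of 10 tested genes of the p53 response, which shares Sesn1 with FOXO, 0 were called for PB-020 or anti-PD-1. Eda2r, a death receptor gene, fell with the combination, 1 of 10 beside 9.60% of all genes lowered. It went from 2.30 ± 0.304 to 1.24 ± 0.0874 FPKM (SD, n = 3, log2 change -0.85, SE 0.192, edgeR adjusted p = 0.0111). The call was lost without CK tumor 2 (0.0607). Sesn2, the paralog of Sesn1, changed by 0.14 with anti-PD-1 and by 0.0068 with the combination, and Sesn3 of the FOXO list by 0.12 and 0.06, none of them called.

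For the 4 genes called in any comparison, the 3 genes with the most similar pattern over the 12 tumors were taken from 12106 genes, by the mean absolute difference of log2 values centered on CK. Because the smallest differences were picked, they lie below the median in any data, which is printed only as a scale. For Sgk1 they were Stk11ip, Herpud1 and Pink1, at 0.0761 to 0.0873 against a median of 0.320 over all genes. For Sesn1 they were Mxd4, Trp53i11 and Pdgfra, at 0.0990 to 0.108 against a median of 0.575. Pdgfra is itself one of the 10 fibroblast markers, and changed by -0.59 with anti-PD-1 and by -0.91 with the combination. For Foxo1 they were Gna13, Ints3 and Plod3, at 0.0344 to 0.0410 against 0.201, and for Cdkn1b they were Ing1, Decr2 and Tmem67, at 0.0381 to 0.0448 against 0.210.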

How the data were processed

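Whole MC38 tumors were sequenced as pairs of 150 bases. Per the study's methods, the authors aligned reads with Bowtie2 to mm10 or hg19 and quantified genes with RSEM; the submitters' processing notes name HISAT, Bowtie2 and GRCm38.p6. The annotation and the versions are not given in the sources used here. The authors deposited RSEM expected counts (estimated, not normalized, whole in 91.0% of values), FPKM values scaled by the authors to gene length and library total, and deposited TPM values, which are scaled to a fixed total per library and were not used for any result. Columns of group averages were not used.

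Expected counts were rounded and filtered with filterByExpr (minimum count 10), which left 13563 genes. A quasi-likelihood model of edgeR 4.0.16 (R 4.3.3) used TMM scaling, robust estimation and 1 mean for each of the 4 groups over the 12 libraries, so all groups were taken to vary alike. The 7 comparisons set PB-020, anti-PD-1 and the combination against CK, the combination against anti-PD-1, PB-020 and anti-PD-1 each present against absent (6 against 6 tumors), and the interaction. Tests were two-sided, and p was adjusted by Benjamini-Hochberg over all genes tested. SDs are over 3 tumors. Intervals are 95% and cover tumor spread and counting error; counting error is larger for genes with few counts, such as Sgk2, Pdk4, Cdkn1c and Scnn1a. Nothing states that the 3 tumors of a group were other than separate animals, and no 2 libraries of the same group agreed within sampling noise (chi-square per degree of freedom at least 5.21).

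The genes and lists were chosen with earlier results of these data known. Named were the 10 genes, of each list up to 4 genes with the smallest p among those called for the combination against CK, Igf1r, Pdcd1 and Bcl2l11, and the 3 genes most like each called gene among those with a mean log2 CPM of at least 1 (prior count 2). Coordinates and promoters are from RefSeq for GRCm38.p6. A search of FOXO proteins for kinase motifs was not run. On counts simulated for the combination against CK over 13563 genes, edgeR recovered 41 of 67 genes changed 1.5-fold, 50 of 67 changed 2-fold and 54 of 66 changed 3-fold, and called 12 of 13363 unchanged genes. Far fewer genes were changed there than the 2434 called in the data, and PB-020 against CK was not simulated. These shares therefore do not measure how often a change with PB-020 would be found. Alternatives were DESeq2 1.42.0, limma 3.58.1 on log2(FPKM + 1) and log2(FPKM + 0.1), no filter, a strict filter (50 counts in 3 libraries), library size in place of TMM, the replicate number as a block, a fit of only the groups compared, and each library left out.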

Additional observations from a re-analysis of the deposited data

How the results depend on the processing

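The absence of calls among the 10 genes for PB-020 (alone or over 6 against 6 tumors) and the falls of Sgk1 and Sesn1 with the combination held under every alternative run. With anti-PD-1 against CK, 2 of the 10 genes were called by edgeR, 4 by DESeq2, 0 with only the groups compared, and 1 to 4 with a tumor left out, while 4 of the other FOXO targets became 7, 0 and 0 to 8, and 2 with the replicate block. The count over all genes went from 1120 to 3 with only the groups compared, which leaves 6 tumors in the fit, and to 137 to 1905 with a tumor left out. With limma on log2(FPKM + 1) 392 genes rose and 643 fell there, against 567 and 553 by edgeR. For the combination against CK, the other FOXO targets gave 4 to 10 and all genes 864 to 3344 with a tumor left out. DESeq2 called 6 genes for PB-020 against CK, 61 over 6 against 6 tumors and 1 for the combination against anti-PD-1, where edgeR called 0. Over 6 against 6 tumors, anti-PD-1 gave 3279 genes, and 2086 to 3690 with a tumor left out. Leaving out CK tumor 2 ended the anti-PD-1 calls of Sgk1, Irs1, Bnip3, Pdcd1, Il7r, Ndrg1, Bcl2l11, Tnfsf10 and Map1lc3b (edgeR adjusted p = 0.0534 to 0.144; Bnip3 0.0556) but not that of Sesn1 (0.0376), which was lost only with only the groups compared (0.0504). The replicate numbers did not pair the tumors: correlations of deviations ran from -0.21 to 0.29 in 18 pairs of tumors with the same number, and 2 exceeded 0.1. With the replicate block, the 10 genes gave the same counts of calls, and the all-gene count for anti-PD-1 was 870. The block ended the calls of Errfi1 (0.0782), Mef2a (0.0546), Ccng1 (0.0651) and Inpp4b (0.0741) for the combination and of Ndrg1 (0.0531), Map1lc3b (0.0585) and Bcl2l11 (0.0572) for anti-PD-1. Of 1549 alternative values for 79 log2 changes, 1394 kept direction and side of the threshold, 120 lost a call, 10 gained one and 25 changed sign, none of these called in either fit, and 16 more had no value. The sign changes were small. For Foxo4 with anti-PD-1 the values were -0.010 and -0.011 (limma, pseudocounts 1 and 0.1) and -0.0098 (library size), for Ccng2 with the combination -0.0015, -0.0016 and -0.0030, and for Ccng2 with against without PB-020 -0.0085, -0.0090 and -0.0069 in the same order. With a tumor left out, the ranges that crossed 0 were, against CK, -0.12 to 0.022 for Sgk1 and -0.092 to 0.14 for Ccng2 with PB-020, -0.34 to 0.19 for Sgk2 and -0.058 to 0.068 for Foxo4 with anti-PD-1, and -0.11 to 0.0053 for Foxo4 and -0.034 to 0.12 for Klf2 with the combination. With against without PB-020 they were -0.068 to 0.017 for Cdkn1b and -0.065 to 0.052 for Ccng2. The cause of these shifts was not tested. Sgk2 had 4 to 16 counts per tumor, which limits what its values can show.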
